A study of Mus musculus with 6 samples.

Results

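Integrins are the main receptors by which cells hold on to the extracellular matrix, each made of an alpha and a beta subunit. Laminins are cross-shaped matrix proteins of basement membranes, each made of an alpha, a beta and a gamma chain, and several integrins bind them directly. In mammary epithelium the laminin that holds the Lama3 and Lamb3 chains anchors cells through the integrin of Itga6 and Itgb4, whereas laminins with the Lama5 chain are bound mostly by the integrins of Itga3 or Itga6 with Itgb1. The genes described here are all rows of the deposited table whose symbol names an integrin subunit or a laminin chain. There were 38 of them among 24421 genes, 27 for integrin subunits and 11 for laminin chains, and the rule used the symbols alone, although the set was taken up with earlier results of these data known.

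The cells were 4T1-tetL1(GLucAI), a BALB/cfC3H mouse breast carcinoma line that carries a recoded mouse LINE-1 (L1) retrotransposon and luciferase reporters behind a doxycycline-responsive promoter. It is a transfected population selected for blasticidin resistance, and every library of both groups comes from it, so the untreated cells carry the cassette and its constitutive activator too. The groups were 3 untreated libraries and 3 libraries from cells given doxycycline at 400 ng/mL for 48 h. One tag of the labels calls the untreated libraries vehicle. The question addressed is which adhesion genes differ between untreated cells and cells given doxycycline. The study describes the replicates as biological triplicates, and the labels do not say how they were separated, so p-values measure the spread between these libraries. Doxycycline-exposed cells without the cassette were not analysed here, so effects of the drug and of L1 cannot be told apart, and neither was the transcript of the cassette, so the groups rest on the labels.

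Library totals lay between 31653464 and 43631312 counts, with overlapping ranges, and levels are given in counts-per-million (CPM) of the scaled library size. A detection limit of 3 counts was worth 0.0683 to 0.0944 CPM and takes in counting error alone. Doxycycline replicate 2 stood apart most, with a chi-square per degree of freedom of 22.06 against doxycycline replicate 1 where the closest pair of replicates had 6.14. The epithelial keratins Krt8, Krt18 and Krt7 and the cadherin Cdh1 had 301 CPM or more in every library. Of the basal keratin genes, Krt5 had no count and Krt14 had 1.95 to 3.50 CPM. The mesenchymal filament gene Vim had 1909.7 CPM or more and Zeb2 66.1 CPM or more. Snai1 and Twist1 had between 8.27 and 14.3 CPM. Of the same mesenchymal list, Cdh2 and Snai2 had no count and Zeb1 at most 1.42 CPM. Of the markers of other cells, Ptprc, which leukocytes carry, reached at most 0.561 CPM, and the fibroblast collagen genes Col1a1, Col1a2 and Col3a1 at most 0.833 CPM. The sum of 10 leukocyte markers lay between 26.6 and 29.7 CPM in untreated libraries and between 22.0 and 24.4 CPM in doxycycline libraries, mostly from Cd14 and Cd68, and Adgre1 and S100a9 had no count. The sum of 8 fibroblast markers lay between 35.7 and 38.7 CPM and between 28.0 and 29.6 CPM, mostly from Pdgfra, and Col3a1, Lum and Thy1 had no count. Cd14 and Pdgfra were themselves called lower with doxycycline (log2 fold changes -0.48 and -0.40, edgeR adjusted p 0.00482 and 0.000952), as was the epithelial keratin gene Krt19 (-0.31, edgeR adjusted p 0.00782). Endothelial markers summed to at most 0.81 CPM, platelet markers to at most 2.11 CPM and muscle markers to at most 0.638 CPM in any library. The sum of the 11 epithelial markers ran from 1874 to 1958 CPM in untreated and from 1818 to 2063 CPM in doxycycline libraries, and that of the 8 mesenchymal markers, which include Fn1, from 5008 to 5149 CPM and from 4514 to 4846 CPM.

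Of the 38 genes, 26 had enough counts to be tested, 18 for integrin subunits and 8 for laminin chains. The other 12 were close to silent, and 2 of them, Lama1, the alpha chain of early embryonic basement membranes, and Itgb2l, a relative of the leukocyte beta subunit, had no count in any library. Itga4, the lymphocyte alpha subunit that pairs with Itgb7, had 1 count in all, and Itga9, its closest relative, had 2. The alpha subunits that pair with Itgb2 on leukocytes were as low, with 12 counts over the 6 libraries for Itgal, 14 for Itgam, 16 for Itgax and 10 for Itgad. Lama4, found in vessels, had 2 counts and Lama2, the muscle chain, had 31. Itgb8, which activates TGF-beta, had 3, 0 and 6 counts in untreated and 0, 0 and 2 in doxycycline libraries. Itga11, a collagen receptor subunit of fibroblasts, had 13, 6 and 8 counts in untreated and 5, 7 and 13 in doxycycline libraries. None of these genes passed the filter on low counts, and their counts in the groups overlapped.

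Levels were compared between genes as CPM per kilobase of the longest annotated transcript (CPM/kb). Itgb1, the beta subunit shared by most matrix-binding integrins, stood highest with 317 ± 3.13 CPM/kb (SD, n = 3) in untreated libraries. It took 84.7 to 85.2% of the summed level of the 7 tested beta subunits there, and 84.4 to 86.7% in doxycycline libraries. Among the 11 tested alpha subunits Itga3, a laminin receptor, led with 240.5 ± 6.16 CPM/kb, which was 58.8 to 60.1% of their sum. It was followed by Itga6, also a laminin receptor, with 80.1 ± 2.62 CPM/kb and by Itgav, which binds fibronectin and vitronectin, with 51.3 ± 0.876 CPM/kb. The fibronectin receptor Itga5 with 14.8 ± 1.01 CPM/kb and the collagen receptor Itga2 with 11.5 ± 0.467 CPM/kb came next, and the remaining alpha subunits were at 2.34 CPM/kb or below. The laminin-binding subunits Itga3 and Itga6 therefore led the alpha subunits of these cells.

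Among beta subunits, Itgb5, a partner of Itgav, followed Itgb1 at 29.4 ± 0.456 CPM/kb in untreated libraries, and Itgb4, the hemidesmosome subunit, stood at 12.8 ± 0.448 CPM/kb. Itgb4 pairs with Itga6 alone, which was 80.1 CPM/kb. Itgb7 and Itgb2, known from leukocytes, had 7.37 ± 0.834 and 3.53 ± 0.292 CPM/kb, although their usual partners Itga4, Itgal, Itgam and Itgax were nearly without counts and Itgae, the other partner of Itgb7, was at 0.605 ± 0.0689 CPM/kb. The remaining Itgav partners Itgb3 and Itgb6 were at 1.82 ± 0.270 and 1.05 ± 0.0747 CPM/kb.

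The laminin chains were led by Lamb1 with 107 ± 3.59 CPM/kb in untreated libraries. Lamc1 (54.2 ± 1.58 CPM/kb) and Lama5 (52.5 ± 2.39 CPM/kb) were lower and close enough to each other that their order was not settled beyond the spread of the libraries. The epithelial beta chain Lamb3 had 15.6 ± 0.381 CPM/kb, the vascular and neuromuscular chain Lamb2 had 6.83 ± 0.216 CPM/kb and Lama3 had 4.52 ± 0.134 CPM/kb. Lama5 thus took 91.6 to 92.5% of the summed alpha chain level and Lama3 the rest. Lama3 was also below Lamb3, with which it shares a trimer. Both statements take the longest transcript of Lama3 as its length. Lama3 also has a short form, and a level by that length, which would be higher, was not computed. Among the genes named here the rank order was the same in doxycycline libraries, except that Itgb7 and Lamb2 changed places. With the union of all exons as the length, 34 of the 52 group means moved by more than the SD of the libraries, so levels of different genes are approximate.

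**Figure D1:**
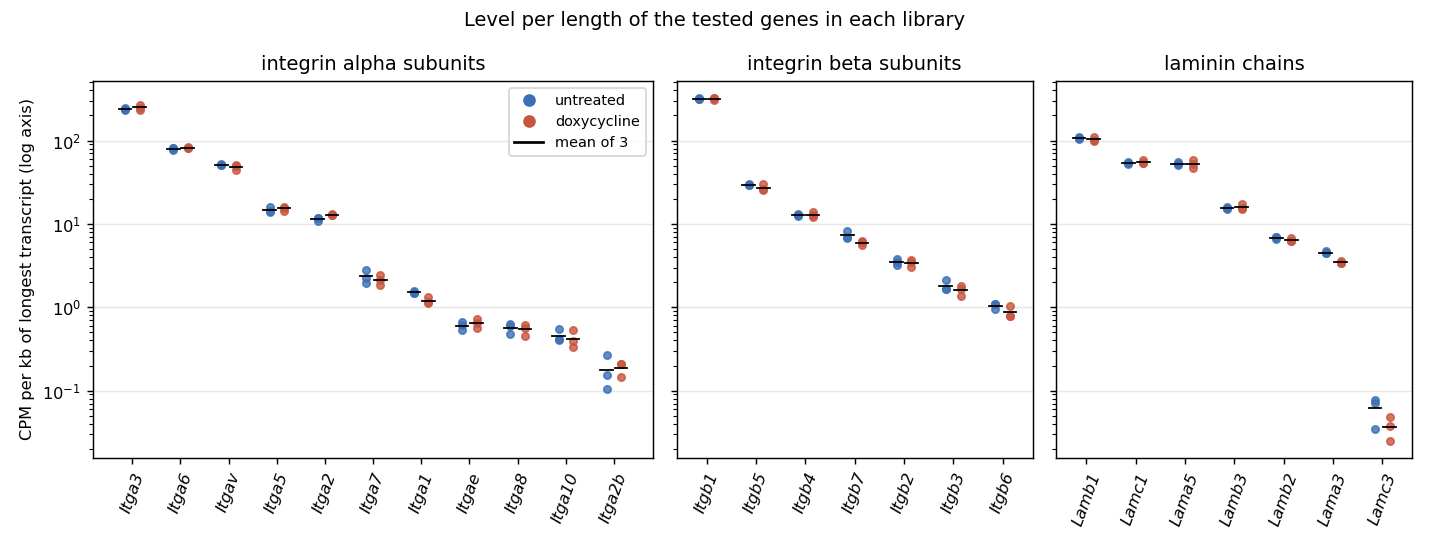
Level per length of 25 of the tested genes. The vertical log axis gives CPM per kilobase of the longest transcript, each dot is 1 library, blue for untreated and red for doxycycline, and short bars are means of 3. Itgb1 and Itga3 stand above all other subunits, and the red dots of Lama3 lie below its blue dots.

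Between the groups, 1 of the 26 tested genes passed the threshold, an adjusted p under 0.05 in edgeR's quasi-likelihood test over all genes. Lama3 was lower with doxycycline, and 0 genes of the 26 were higher. Over all 13084 genes tested, 3.09% were called, 2.16% lower and 0.925% higher, so a single call among 26 genes is close to the background. At an unadjusted p under 0.05 there were 4 of 26, or 15.4%, where the background is 16.2%. The groups did not overlap for the same 4 genes (15.4%), Lama3, Itga1, Itga2 and Itgb7, where the share over all genes is 21.3%. Of the 26, 16 had a log2 fold change below 0 and 10 above, with a median of -0.045 against 0.002 for all genes tested. This median rested on single libraries: it was -0.069 without doxycycline replicate 2, -0.01 without doxycycline replicate 3, -0.019 without untreated replicate 2 and between -0.03 and -0.025 without any one of the others. The median absolute log2 fold change was 0.08, against 0.09 for all genes tested.

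**Figure D2:**
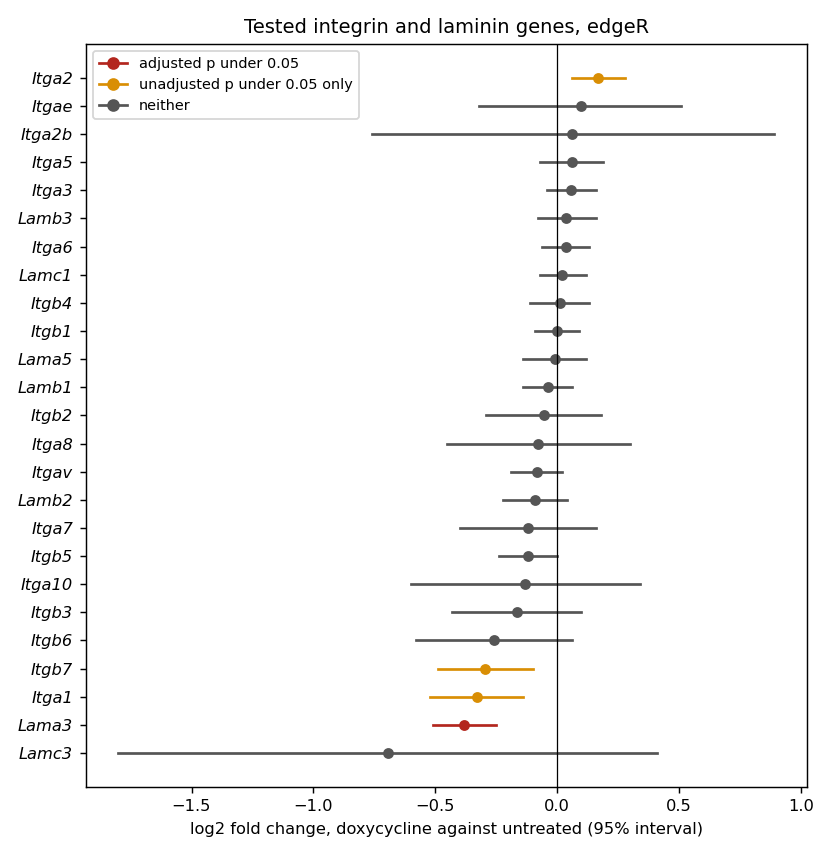
Log2 fold changes of 25 of the tested genes, doxycycline against untreated. Points are edgeR estimates and lines their 95% intervals, red for an adjusted p under 0.05, orange for an unadjusted p under 0.05 only and grey for neither. Lama3 at -0.38 is the only red point, and the long lines of Lamc3 and Itga2b belong to genes under 1 CPM.

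Lama3 encodes the alpha chain of the epithelial laminin and lies on chromosome 18. It had 46.7, 47.0 and 49.3 CPM in untreated replicates 1 to 3 and 36.1, 37.7 and 36.0 CPM in doxycycline replicates 1 to 3. All 3 doxycycline libraries were below all 3 untreated ones, with a gap far wider than the spread within either group. The means were 47.6 ± 1.42 CPM without and 36.6 ± 0.984 CPM with doxycycline (SD, n = 3), and the log2 fold change was -0.38 (SE 0.06, 95% interval -0.51 to -0.25, edgeR adjusted p 0.000682). This call was kept in all 6 fits that each left out a library, with log2 fold changes from -0.40 to -0.36. The gene has a long and a short form that differ at their start, and counts per gene do not tell them apart. In the GENCODE M21 annotation an antisense gene, Gm29200, shares 197 bases of the Lama3 exons, and whether counting used strand was not given. The leukocyte and fibroblast marker sums given above were also lower with doxycycline, and their part in this result was not tested. In such bulk libraries fewer cells that make a transcript and less of it per cell cannot be told apart.

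Lamb3, the beta chain that joins Lama3 in the same trimer, did not pass the threshold. It had 74.2, 76.2 and 77.9 CPM in untreated and 74.5, 84.5 and 75.0 CPM in doxycycline libraries, so the groups overlapped. Its log2 fold change was 0.04 with a 95% interval of -0.08 to 0.16 (edgeR adjusted p 0.82). The lower bound of this interval lies above the upper bound of -0.25 for Lama3.

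A ratio of counts within a library does not depend on scaling between libraries, and 7 such ratios were computed, chosen after the values were seen. Lama3 had 0.629, 0.617 and 0.632 counts per count of Lamb3 in untreated libraries and 0.484, 0.447 and 0.480 in doxycycline libraries. Per count of Lama5 the values were 0.0793, 0.0748 and 0.0855 in untreated and 0.0677, 0.0572 and 0.0612 in doxycycline libraries. Neither ratio overlapped between groups, with differences of -0.41 and -0.37 in log2 (exact two-sided permutation p 0.1 each, the smallest that 3 against 3 libraries allow, and 0.175 adjusted over the 7 ratios). The Lama3 share of the summed alpha chain level per length went from 7.47 to 8.45% in untreated libraries to 5.82 to 6.81% in doxycycline libraries.

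**Figure D3:**
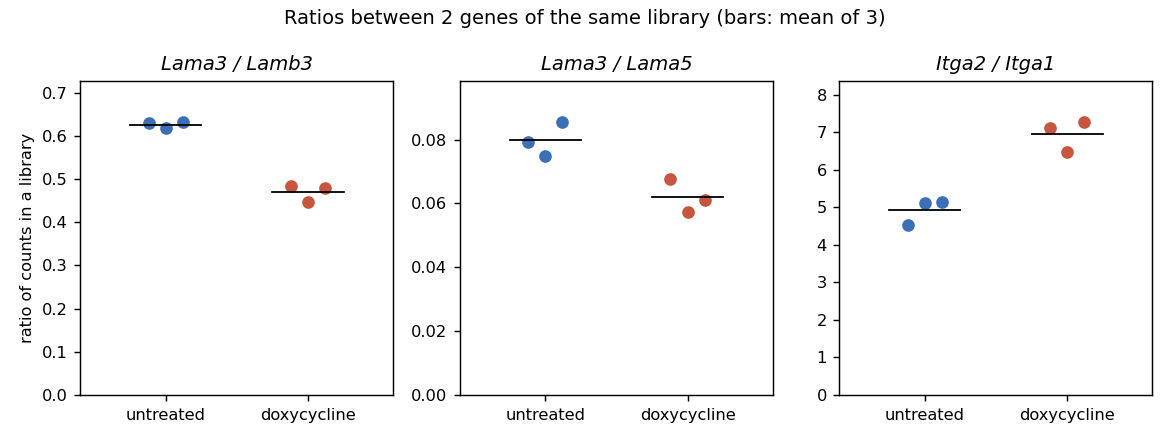
Ratios of counts between a pair of genes in the same library. Each dot is 1 library, blue for untreated and red for doxycycline, bars are means of 3, and each vertical axis starts at 0. Lama3 is lower against Lamb3 and against Lama5 in every doxycycline library, and Itga2 to Itga1 is higher in every doxycycline library.

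The chains of the broadly expressed laminins did not differ detectably. Lama5 had 588, 628 and 576 CPM in untreated and 533, 659.9 and 588 CPM in doxycycline libraries, the widest spread of any abundant chain, with doxycycline replicate 2 highest and doxycycline replicate 1 lowest of all 6. Lamb1 had 639, 623 and 598 CPM in untreated and 575, 645 and 590 CPM in doxycycline libraries. Lamc1 had 426, 412 and 402 CPM in untreated and 411, 444 and 405 CPM in doxycycline libraries. In all 3 genes doxycycline replicate 2 was the highest library and the groups overlapped. The 95% intervals of their log2 fold changes were -0.14 to 0.12 for Lama5, -0.14 to 0.06 for Lamb1 and -0.07 to 0.12 for Lamc1. Lamb2 had 37.1, 39.0 and 39.3 CPM in untreated and 35.2, 38.0 and 35.1 CPM in doxycycline libraries, with an interval of -0.22 to 0.04. Lamc3, at 0.205 to 0.454 CPM in untreated and 0.147 to 0.287 CPM in doxycycline libraries, was too low for a useful estimate (interval -1.80 to 0.41).

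Among integrin alpha subunits the smallest p-values belonged to the neighbouring collagen receptor genes Itga1 and Itga2, which had fold changes of opposite sign and did not pass the threshold. Itga1, which prefers the collagen of basement membranes, had 17.2, 16.4 and 16.2 CPM in untreated and 12.7, 14.4 and 12.4 CPM in doxycycline libraries. Every doxycycline library was below every untreated one (log2 fold change -0.33 with an SE of 0.09, adjusted p 0.0588 by edgeR). Itga2, which prefers fibrillar collagen, had 77.7, 83.6 and 83.2 CPM in untreated and 90.6, 93.4 and 90.5 CPM in doxycycline libraries. Every doxycycline library was above every untreated one (log2 fold change 0.17 with an SE of 0.05, adjusted p 0.084 by edgeR). The count of Itga2 per count of Itga1 was 4.52, 5.11 and 5.15 in untreated and 7.12, 6.49 and 7.28 in doxycycline libraries, a difference of 0.50 in log2 (exact permutation p 0.1, the smallest possible, and 0.175 adjusted over the 7 ratios). In the GENCODE M21 annotation Itga1 shares 685 bases of its exons with a gene model on the same strand, Gm49395.

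Itga2 (chromosome 13, 114833081 to 114932100, protein-coding, GRCm38) and Itga1 (chromosome 13, 114953096 to 115101964, protein-coding) lie on the minus strand with 21.0 kb between them. Because this pair had fold changes of opposite sign, the sequences around their RefSeq start sites on GRCm38.p6 are shown, 250 bases before and 50 after, 5′ to 3′ along the gene. They are chr13:114932051-114932350 and chr13:115101915-115102214, both minus strand, and capitals mark the GC box GGGCGG, searched on both strands.
Itga2: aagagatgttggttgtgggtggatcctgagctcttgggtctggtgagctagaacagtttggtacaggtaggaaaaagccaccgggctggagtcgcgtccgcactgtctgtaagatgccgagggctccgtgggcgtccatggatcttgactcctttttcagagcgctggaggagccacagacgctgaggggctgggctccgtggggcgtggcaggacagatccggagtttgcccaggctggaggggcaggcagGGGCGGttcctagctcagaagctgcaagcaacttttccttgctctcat
Itga1: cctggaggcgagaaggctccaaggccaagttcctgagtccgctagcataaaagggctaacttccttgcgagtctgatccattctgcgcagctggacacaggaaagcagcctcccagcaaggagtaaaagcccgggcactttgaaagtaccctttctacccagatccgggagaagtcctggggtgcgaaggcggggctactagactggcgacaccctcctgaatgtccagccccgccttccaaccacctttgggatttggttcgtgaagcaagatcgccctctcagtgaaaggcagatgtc
The Itga2 sequence held 1 such box, which starts at base 3 of the transcript, and the Itga1 sequence held 0. Their GC contents were 59.3% and 56.7%. Of the 26 tested genes 16 had an entry in this table, with 19 start sites, and 9 of the 19 (47.4%) held the box, where 35.7% of all 32851 promoters of this length did. The genes with it were Itga2, Itga3, Itga5, Itgav, Itgb1, Itgb5, Lama5 and Lamb1. The motif TGANTCA was in 1 of 19, that of Itga3, against 7.81% of all promoters, and TATAAA was in 0 of 19 against 13.6%. The shares over all promoters include genes without enough counts to be tested, so the sets are unlike. These matches describe the letters only, and no difference between the sets was tested.

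The alpha subunits that bind laminin, fibronectin and vitronectin showed overlapping groups. Itga3 had 1196, 1175 and 1137 CPM in untreated and 1134, 1308 and 1209 CPM in doxycycline libraries (95% interval of the log2 fold change -0.04 to 0.16). Itga6 had 356, 333 and 346 CPM in untreated and 352, 347 and 363 CPM in doxycycline libraries (interval -0.06 to 0.13). For both laminin receptor subunits a fall as large as that of Lama3 lies outside the interval. Itga5 had 61.4, 70.1 and 64.0 CPM in untreated and 63.7, 71.4 and 68.9 CPM in doxycycline libraries (interval -0.07 to 0.19). Itgav had 355, 364 and 367 CPM in untreated and 361, 313 and 352 CPM in doxycycline libraries (interval -0.19 to 0.02), and doxycycline replicate 2 was the low one. The less abundant Itga7, Itgae, Itga8, Itga10 and Itga2b had from 0.360 to 11.3 CPM over all libraries and edgeR adjusted p-values from 0.726 to 0.962.

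Of the 7 tested beta subunits 6 had a log2 fold change below 0, with a median of -0.12, and 0 were called. Among the 6 were Itgb1 at -0.002 and Itgb2 at -0.052. Over all 13084 genes tested, 6443 were below 0, with a median of 0.002. Itgb7 had 18.8, 22.3 and 18.2 CPM in untreated and 15.1, 16.8 and 16.2 CPM in doxycycline libraries. Its groups did not overlap, with untreated replicate 2 well above the rest (log2 fold change -0.30 with an SE of 0.09, adjusted p 0.0909 by edgeR). Without that library the log2 fold change was -0.20. Itgb5 had 98.1, 96.0 and 95.1 CPM in untreated and 82.8, 97.9 and 85.4 CPM in doxycycline libraries, so doxycycline replicate 2 lay among the untreated libraries (log2 fold change -0.12 with an SE of 0.06, adjusted p 0.319 by edgeR). Without doxycycline replicate 2, Itgb5 was called at -0.20 (edgeR adjusted p 0.00799), as were Itga1 at -0.40 (0.0101) and Itgb7 at -0.33 (0.0298), so that 4 of the genes were lower in place of 1. The share of all genes called lower rose in the same fit too, to 3.68%. In the other 5 fits with a library left out, Lama3 was the only call among the integrin and laminin genes.

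**Figure D4:**
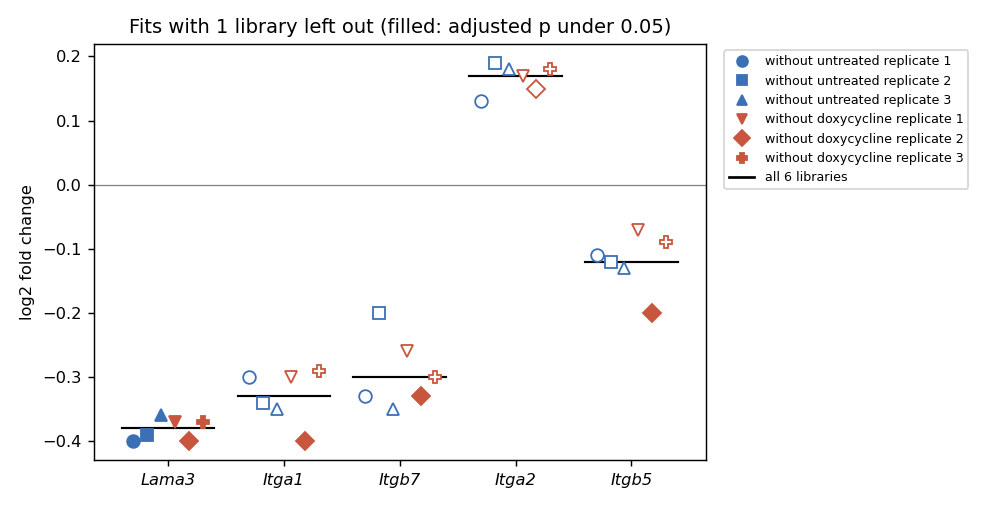
Log2 fold changes of Lama3 and 4 integrin genes in fits that each leave out 1 library. The horizontal bars give the value with all 6 libraries, symbols give each fit, and filled symbols have an adjusted p under 0.05. All 6 symbols of Lama3 are filled, and those of Itga1, Itgb7 and Itgb5 are filled only without doxycycline replicate 2.

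Itgb1, the most abundant subunit, had a log2 fold change of 0.00. It had 1221, 1204 and 1198 CPM in untreated and 1222, 1167 and 1230.4 CPM in doxycycline libraries, with a 95% interval of the log2 fold change of -0.09 to 0.09, or -5.98 to 6.12%. Itgb4 had 79.4, 82.7 and 77.1 CPM in untreated and 78.4, 86.7 and 75.9 CPM in doxycycline libraries, with an interval of -0.11 to 0.13. Counts of its partner Itga6 per count of Itgb4 ran from 4.03 to 4.49 in untreated and from 4.00 to 4.78 in doxycycline libraries, which overlapped. Itgb3 had 9.59, 9.62 and 12.3 CPM in untreated and 10.5, 9.72 and 7.94 CPM in doxycycline libraries (interval -0.43 to 0.10). Itgb6, an epithelial activator of TGF-beta, had 5.24, 5.25 and 4.62 CPM in untreated and 3.81, 5.00 and 3.79 CPM in doxycycline libraries (interval -0.58 to 0.06). Itgb2 had from 8.96 to 11.3 CPM over all libraries (edgeR adjusted p 0.872).

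Genes that work beside integrins and laminins were taken from 4 lists, of which 81 genes were tested. Of these 13 were called lower and 0 higher, or 16.0% lower, against 2.16% of all genes tested. These lists were written with earlier results of these data known, so these counts are a description only. The counts also rested on single libraries, with 7 lower when untreated replicate 1 or 2 was left out, 6 when replicate 3 of either group was, and 18 when doxycycline replicate 2 was. The calls of Spp1, Npnt, Cd81, Nid1, Sdc2 and Nedd9 were kept in all 6 fits with a library left out.

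Of the matrix ligands of integrins, 3 of 18 tested were lower and 0 higher. Spp1, osteopontin, which binds Itgav integrins, went from 1877 ± 44.3 to 1468 ± 30.1 CPM (log2 fold change -0.35 with an SE of 0.04, adjusted p 1.83e-05 by edgeR). Npnt, nephronectin, a ligand of Itga8, went from 97.8 ± 4.51 to 79.8 ± 4.18 CPM (-0.29, edgeR adjusted p 0.00309), while Itga8 itself was at 2.66 to 3.63 CPM. Fn1, fibronectin, went from 2949 ± 38.1 to 2575 ± 147 CPM (-0.20, edgeR adjusted p 0.0159), a call kept in 2 of the 6 fits. Itgav, which binds Spp1 and Fn1, and Itga5, which binds Fn1, did not pass the threshold.

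Of the basement membrane genes and laminin receptors other than integrins, 3 of 18 tested were lower and 0 higher. Nid1, nidogen, which links the gamma chain of laminin to type IV collagen, had the largest fold of all called partner genes. It stood at 6.65, 5.91 and 7.29 CPM in untreated and at 3.65, 3.28 and 3.66 CPM in doxycycline libraries (log2 fold change -0.91 with an SE of 0.14, adjusted p 0.000636 by edgeR). The syndecans Sdc2 and Sdc4, cell surface proteoglycans that act with integrins, had log2 fold changes of -0.32 (edgeR adjusted p 0.00187) and -0.18 (0.0287), and the call of Sdc4 was kept in 2 of the 6 fits with a library left out. Nid1 was thus called lower while the gamma chain Lamc1 was not. Other abundant basement membrane genes of this list were not called. Col4a1, Col4a2, Hspg2 and Agrn had log2 fold changes of 0.02, 0.05, -0.07 and -0.01 (edgeR adjusted p 0.895, 0.732, 0.571 and 0.976).

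Of the hemidesmosome and tetraspanin list, 4 of 11 tested were lower and 0 higher. The 4 were the tetraspanins Cd81 (-0.35, edgeR adjusted p 0.000169), Cd82 (-0.33, 0.0287) and Cd9 (-0.20, 0.0362), which sit beside integrins in the membrane, and the integrin-associated protein Cd47 (-0.18, 0.026). Only Cd81 was called in all 6 fits with a library left out, and the others in 1 or 2. The tetraspanins Cd151 (-0.06, edgeR adjusted p 0.639) and Cd63 (-0.09, 0.382) of the same list were not called. Nor were the hemidesmosome genes Plec, Dst and Col17a1. Of the cytoplasmic adaptors and kinases, 3 of 34 tested were lower and 0 higher. These were the scaffold Nedd9 (-0.42, edgeR adjusted p 0.000824) and the tensins Tns1 (-0.64, 0.0095) and Tns4 (-0.16, 0.0495), called in 6, 4 and 1 of the 6 fits. The talins, kindlins and focal adhesion kinase were not called.

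**Figure D5:**
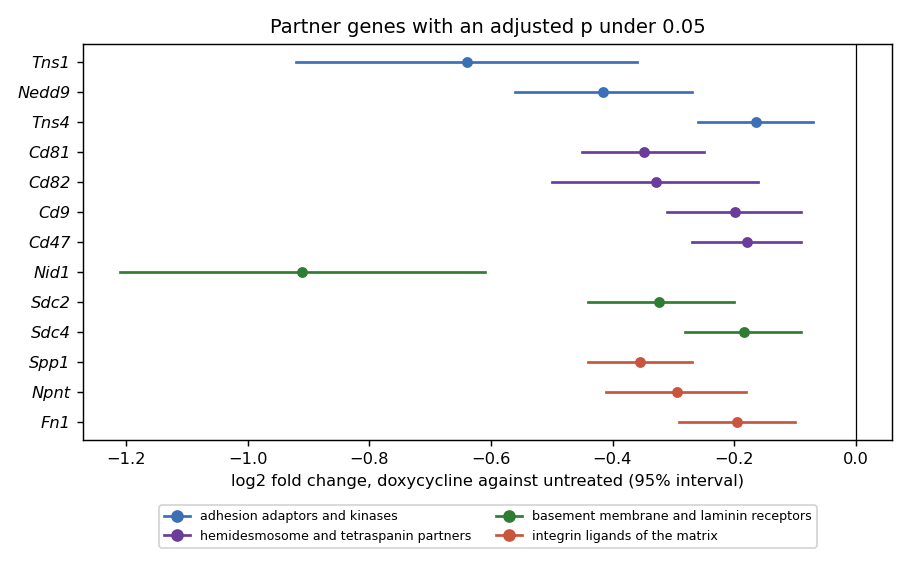
Log2 fold changes, doxycycline against untreated, of the 13 called genes of the 4 partner lists. Points are edgeR estimates, lines are 95% intervals and colours give the list. All 13 lie below 0, from -0.91 for Nid1 to -0.16 for Tns4.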

How the data were processed

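Libraries were depleted of ribosomal RNA and kept strand. The submitters' processing notes name bcl2fastq 2.20, STAR and featureCounts of Subread 1.6.2, with mm10 as the genome. The authors deposited raw counts per gene in 1 table of 24421 genes and 6 libraries. The strand setting and the treatment of reads with several matches were not given in the sources used here, so antisense and near-identical genes are uncertain. Rn45s, a ribosomal RNA gene, took 8.83 to 12.1% of counts.

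Counts were scaled by TMM, filtered by filterByExpr (13084 genes kept) and tested with edgeR 4.0.16 (R 4.3.3), whose quasi-likelihood fit was robust and two-sided, with Benjamini-Hochberg adjustment over all genes and a threshold of 0.05. CPM are counts-per-million of the TMM-scaled library size. Lengths, positions and exon overlaps came from GENCODE M21 on GRCm38, and promoter sequences from RefSeq. The paper counted reads with a UCSC mm10 annotation, so the lengths and overlaps need not be those of the counted genes. The scripts were tested on simulated data. The members and all gene lists, markers included, were chosen with earlier results of these data known. Counts and medians cover the whole set, and 1 tested gene is not reported here by name or value. Values per library are given for tested genes with an unadjusted p under 0.05 and for a set of main receptor and laminin genes, and from each partner list the called genes are named, at most 5. Alternatives were other scalings and filters, DESeq2 1.42.0, limma 3.58.1 (voom), a replicate block and leaving out each library. Same-numbered libraries did not deviate together (correlations -0.04 to 0.02).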

Additional observations from a re-analysis of the deposited data

How the results depend on the processing

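Lama3 was called lower under all 8 alternative settings and in all 6 fits that left out a library. The count of integrin and laminin genes called lower was 2 with library size only, 3 with no filter and 2 with the DESeq2 Wald test, by the addition of Itga1 in each and of Itgb7 with no filter, and 1 to 4 with a library left out. Over all genes, 439 were lower with no filter and 116 to 487 with a library left out, against 283. Those higher were 210 with no filter, 185 with the DESeq2 Wald test and 44 to 269 with a library left out, against 121. The partner lists had 6 to 18 lower with a library left out, against 13. In the labels, libraries with the same replicate number share only that number. Whether they were also handled together was not given. With the replicate block 418 genes were called, 382 of them also without it, where 404 were called in all. Genes under about 1 CPM, such as Lamc3 and Itga2b, were limited by depth.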
